A study of Mus musculus with 4 samples.

Results

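The genes described here are 10 members of the prostaglandin and leukotriene pathway, out of 21883 features listed in each of the 2 deposited tables. They were taken by symbol and are the cyclooxygenase genes Ptgs1 and Ptgs2, the prostaglandin synthase genes Ptges, Ptgds and Hpgds, the leukotriene synthesis gene Alox5ap, and the prostaglandin E2 receptor genes Ptger1, Ptger2, Ptger3 and Ptger4. Each of the 10 symbols was found in both tables. RNA was sequenced from wild-type, young adult male mice of the strain labelled BL6/C57, 7 days after the left sciatic nerve and the left femoral nerve were cut. The 4 groups are ipsilateral dorsal root ganglia (DRG) of lumbar levels 4 to 6, contralateral DRG of the same levels, ipsilateral lumbar dorsal spinal cord and contralateral lumbar dorsal spinal cord. All 4 come from operated mice, so the contralateral libraries are not from uninjured animals. There is 1 library per group, and the sources used here do not say whether a library pools animals. No difference below therefore has a replicate check.

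Prostaglandins are lipid mediators made from arachidonic acid. A phospholipase frees the acid from membranes, a cyclooxygenase turns it into prostaglandin H2, and a terminal synthase then makes a particular prostaglandin, such as E2 or D2, which acts on G protein-coupled receptors. Leukotrienes come from the same acid through 5-lipoxygenase. In sensory neurons prostaglandin E2 is known to lower the threshold of nociceptors, and cyclooxygenases are the targets of aspirin-like drugs.

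Levels are FPKM, the authors' deposited fragments per kilobase of transcript scaled to mapped fragments. Side differences are given as the log2 ratio of (ipsilateral + 1) over (contralateral + 1) FPKM, which understates the differences of low genes, or as plain folds of the deposited FPKM. The interval beside a plain fold is the 95% range from the standard error that the authors' deposited table implies for this pair of libraries, and it leaves out variation between animals. Genes that reached 1 FPKM on either side of a tissue are called measured there, and those whose log2 ratio reached 1 or -1 are called 2-fold higher or lower. A single read was worth 0.639 times as much FPKM in ipsilateral as in contralateral DRG, and 1.35 times as much in ipsilateral as in contralateral cord. The summed FPKM lay between 425636 and 442298 in the 4 libraries, and the median log2 ratio over measured features was 0.05 in DRG and 0.02 in cord.

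The defining markers of the labelled tissues were present. The 12 sensory neuron markers summed to 2533 FPKM in ipsilateral and 3585 FPKM in contralateral DRG, against 345 and 292 FPKM in cord, and the 8 oligodendrocyte markers summed to 3594 FPKM in ipsilateral and 4664 FPKM in contralateral cord. The nerve injury gene Atf3 stood at 389 FPKM in ipsilateral and 12.6 FPKM in contralateral DRG. The contralateral DRG library held a trace of central myelin transcripts, at levels above those of the ipsilateral library. Mobp, a myelin protein gene of oligodendrocytes, stood at 0.038 FPKM in ipsilateral and 0.998 FPKM in contralateral DRG, and at 276 FPKM in ipsilateral and 178 FPKM in contralateral cord.

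Ptgds was the highest of them in every library, between 59.5 and 191 FPKM. Ptgs2 and Ptger2 stayed under 1 FPKM in all 4 libraries. Of the 10, 8 were measured in DRG and 6 in cord. Ptgs1 and Hpgds in DRG, and Ptger1 and Ptger4 in cord, passed that filter through 1 of their 2 libraries only.

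**Figure D1:**
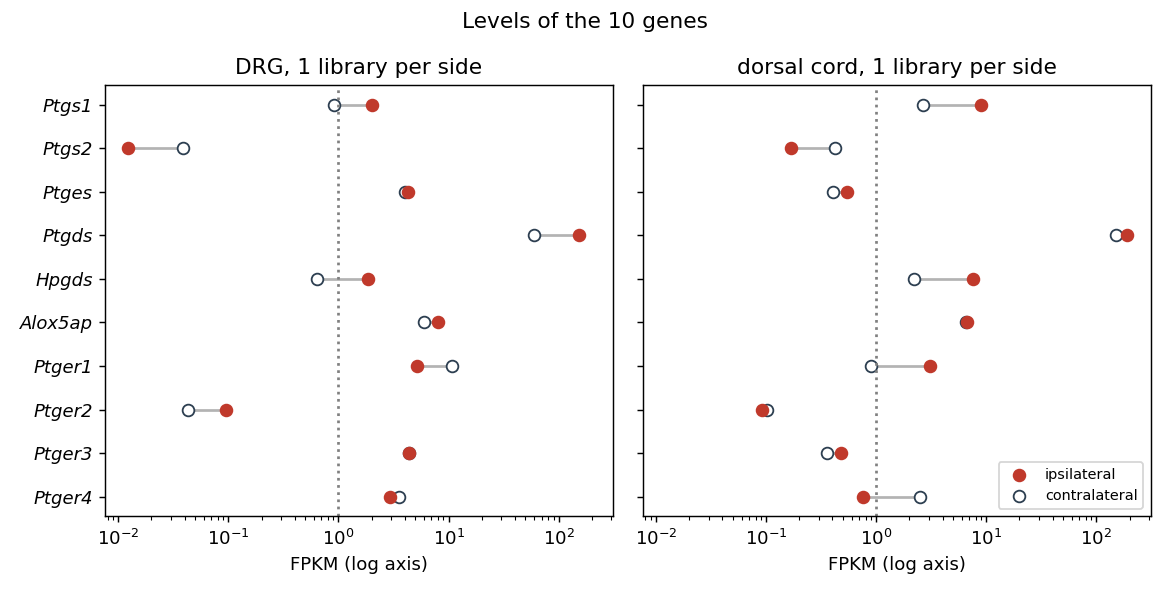
Level in FPKM (log axis) of each of the 10 genes in DRG (left) and dorsal cord (right), with filled points for the ipsilateral and open points for the contralateral library and a dotted line at 1 FPKM. Ptgds lies highest in every library, and Ptgs2 and Ptger2 lie left of the dotted line in all 4.

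In DRG, 1 of the 8 measured members (Ptgds) was 2-fold higher and 0 were 2-fold lower, where 3.04% and 0.784% of all measured features were. The authors' deposited table calls Ptgds and Hpgds higher and Ptger1 lower, where it calls 4.64% of its tested features higher and 1.9% lower. In cord, 3 of the 6 measured members (Ptgs1, Hpgds and Ptger1) were 2-fold higher and 0 were 2-fold lower, where 4.46% and 1.64% of all measured features were. Ptger4 lay just outside the threshold, at a log2 ratio of -1.0. There the authors' deposited table calls Ptgs1 and Hpgds higher and Ptger4 lower, where it calls 4.52% of its tested features higher and 1.55% lower. These calls compare 1 library with 1 library. With a pseudocount of 0.1 FPKM, 3 members were 2-fold higher and 1 lower in DRG, and 1 was lower in cord.

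**Figure D2:**
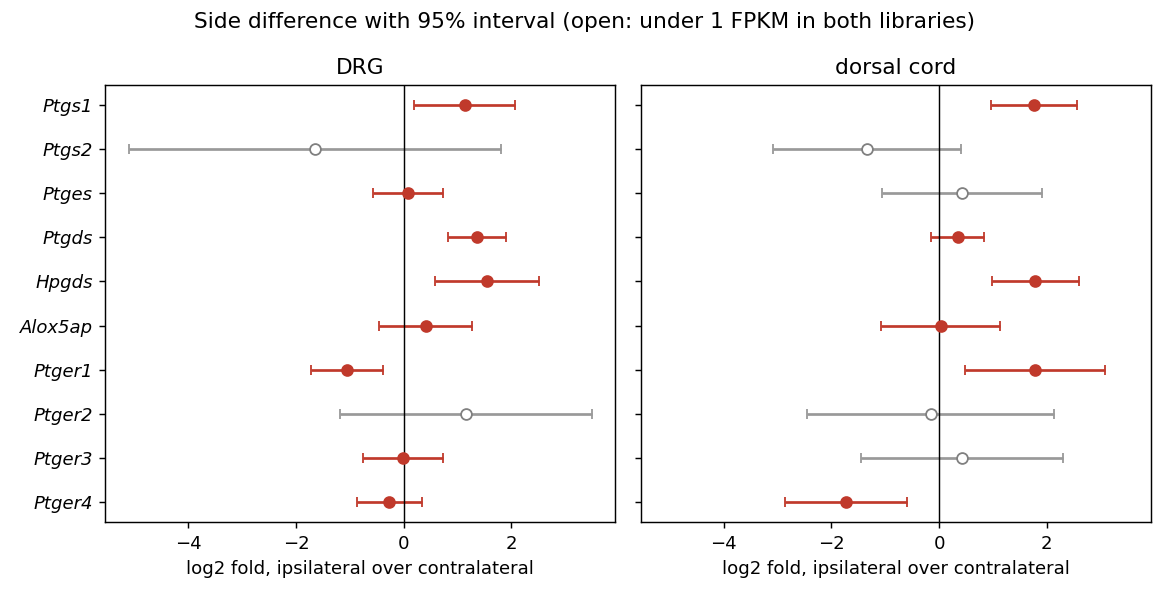
Plain log2 fold of ipsilateral over contralateral FPKM for each gene in DRG (left) and dorsal cord (right), with bars for the 95% interval from the standard error that the authors' deposited table implies and open points for genes under 1 FPKM in both libraries of the tissue. In DRG the intervals of Ptgs1, Ptgds and Hpgds lie above 0 and that of Ptger1 below it, and in cord those of Ptgs1, Hpgds and Ptger1 lie above 0 and that of Ptger4 below it.

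Of the cyclooxygenase genes, Ptgs1 was higher on the cut side in both tissues, and Ptgs2 was under 1 FPKM in every library. Ptgs1 encodes cyclooxygenase 1, the form that many cells make without a stimulus. It lies on mm9 at chr2:36085946-36107789. Cord held 9.02 FPKM of it ipsilaterally and 2.67 FPKM contralaterally, a 3.38-fold difference, and its interval in the authors' deposited table ran from 1.94 to 5.88 (log2 ratio 1.45). DRG held 2.02 FPKM ipsilaterally and 0.918 FPKM contralaterally, a 2.20-fold difference, and its interval there ran from 1.14 to 4.22 (log2 ratio 0.65). The authors' deposited table calls the difference in cord (q = 0.00137) and not the one in DRG (q = 0.161). Both ipsilateral libraries were thus above their contralateral partner, and both cord libraries above both DRG libraries, although the tables were normalised separately.

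Ptgs2 encodes cyclooxygenase 2, the form that many cells induce in inflammation, and lies on mm9 at chr1:151947254-151955142. It stood at 0.012 FPKM in ipsilateral and 0.039 FPKM in contralateral DRG. The standard error of that difference is the one that 1 ipsilateral and 2 contralateral reads would give if counting were its only source. Cord held 0.166 FPKM ipsilaterally and 0.422 FPKM contralaterally, and its standard error there matches about 3.40 and 11.6 reads. The interval of the fold ran from 0.12 to 1.32 in cord and from 0.029 to 3.52 in DRG in the authors' deposited table. At this depth no side difference of Ptgs2 was detectable in either tissue. Ptgs1 exceeded Ptgs2 in each of the 4 libraries, by 54.2 times in ipsilateral and 6.32 times in contralateral cord on the FPKM scale, which is per length.

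The terminal synthase genes differed from each other. Ptges encodes microsomal prostaglandin E synthase 1, which makes prostaglandin E2 and is often induced together with cyclooxygenase 2. It lies on mm9 at chr2:30744991-30758817. In DRG it stood at 4.28 FPKM ipsilaterally and 4.05 FPKM contralaterally, a fold of 1.05, and its interval in the authors' deposited table ran from 0.67 to 1.65. Its cord level was 0.540 FPKM ipsilaterally and 0.401 FPKM contralaterally. That ratio of 1.35 is the value of 1 read on the ipsilateral relative to the contralateral side, so the libraries held about equal numbers of reads of Ptges, and the standard error matches about 7.22 on the ipsilateral and 7.23 on the contralateral side.

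The genes of the prostaglandin D2 synthases were each higher in the ipsilateral library of both tissues. Ptgds encodes the lipocalin-type enzyme, an abundant secreted protein of the meninges and of oligodendrocytes in the central nervous system, and lies on mm9 at chr2:25322232-25325269. The level in DRG was 153 FPKM ipsilaterally and 59.5 FPKM contralaterally, a 2.56-fold difference with an interval of 1.77 to 3.72 in the authors' deposited table, which calls it (q = 6.29e-05). Its log2 ratio of 1.34 was above that of 98.5% of measured DRG features. The cord levels were 191 FPKM ipsilaterally and 151 FPKM contralaterally, a fold of 1.27 whose interval spans 1 in the authors' deposited table (0.90 to 1.79).

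Hpgds encodes the haematopoietic enzyme of the same reaction, found in mast cells, macrophages and microglia, and lies on mm9 at chr6:65067287-65094724. The level in cord was 7.61 FPKM ipsilaterally and 2.20 FPKM contralaterally, a 3.46-fold difference with an interval of 1.97 to 6.05 in the authors' deposited table (q = 0.0012, log2 ratio 1.43). That in DRG was 1.88 FPKM ipsilaterally and 0.641 FPKM contralaterally, a 2.92-fold difference with an interval of 1.49 to 5.72 in the authors' deposited table (q = 0.0318, log2 ratio 0.81). The level of Ptgds was above that of Hpgds in every library, by 25.1 times in ipsilateral and 68.4 times in contralateral cord, and by 81.4 times in ipsilateral and 92.8 times in contralateral DRG, in FPKM. Ptgs1 and Hpgds had close values in each of the 4 libraries.

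The promoters of Ptgs1, Hpgds and Ptgds are shown because these are the members at least 2-fold higher in a tissue for which the RefSeq table of build GRCm38.p6 holds a promoter. That table holds one for 8 of the 10 members. Ptger1 and Alox5ap are not matched. Each run gives the 250 bases before the start of the gene, 5′ to 3′ on the strand of the gene. Ptgs1 is at chr2:36230176-36230425 on the plus strand, Hpgds at chr6:65144731-65144980 on the minus strand and Ptgds at chr2:25469750-25469999 on the minus strand. Capitals mark matches to 6 motifs searched on both strands, which are GAGGAA (the core bound by ETS factors such as PU.1), TGANTCA (AP-1), TGACGTCA (the cAMP response element), GGGNN directly followed by TTTCC (a form bound by NF-kB), TATAAA and CCAAT.
Ptgs1: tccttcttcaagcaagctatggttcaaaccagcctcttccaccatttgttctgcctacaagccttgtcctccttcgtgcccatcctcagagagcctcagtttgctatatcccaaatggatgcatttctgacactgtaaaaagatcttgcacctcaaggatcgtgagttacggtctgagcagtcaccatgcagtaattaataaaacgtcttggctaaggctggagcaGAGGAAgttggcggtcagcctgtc
Hpgds: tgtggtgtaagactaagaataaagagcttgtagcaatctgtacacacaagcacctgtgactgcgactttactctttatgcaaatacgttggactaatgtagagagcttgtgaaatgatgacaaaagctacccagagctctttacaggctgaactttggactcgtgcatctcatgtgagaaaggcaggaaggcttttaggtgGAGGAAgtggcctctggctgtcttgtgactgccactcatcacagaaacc
Ptgds: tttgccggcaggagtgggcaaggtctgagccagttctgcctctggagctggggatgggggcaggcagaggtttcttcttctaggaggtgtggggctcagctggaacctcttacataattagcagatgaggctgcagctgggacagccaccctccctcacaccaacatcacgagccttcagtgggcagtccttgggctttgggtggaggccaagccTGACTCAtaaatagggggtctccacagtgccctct
Ptgs1 and Hpgds each hold 1 GAGGAA on the strand of the gene, the first base of which lies 24 bases before the start in Ptgs1 and 49 in Hpgds. That motif occurs in 23.3% of all 32851 promoters of this length. Ptgds holds 1 TGANTCA match, 35 bases before its start, and that motif occurs in 6.75% of the promoters. The other 4 motifs are not in these 3 windows. Their shares over all promoters are 1.55% for TGACGTCA, 1.41% for the NF-kB form, 12.4% for TATAAA and 33.8% for CCAAT.

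Alox5ap, on the leukotriene branch, was near even between sides. It encodes the 5-lipoxygenase activating protein, which presents arachidonic acid to the lipoxygenase and is a gene of myeloid and mast cells, and it lies on mm9 at chr5:150076634-150099623. It stood at 7.95 FPKM in ipsilateral and 5.98 FPKM in contralateral DRG, a fold of 1.33, and its interval in the authors' deposited table ran from 0.73 to 2.42. Cord levels were 6.64 FPKM ipsilaterally and 6.49 FPKM contralaterally, a fold of 1.02, and its interval there ran from 0.48 to 2.20. These intervals do not exclude a difference of 2-fold. In the GENCODE M21 annotation of GRCm38, 13.3% of the exonic bases of Alox5ap lie in exons of Gm19719 on the other strand. Its 4 levels were thus closer to each other than those of Ptgs1 or Hpgds were.

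The 4 prostaglandin E2 receptor genes made up different mixtures in the libraries. Their summed level was 12.6 FPKM in ipsilateral and 18.8 FPKM in contralateral DRG, and 4.37 FPKM in ipsilateral and 3.84 FPKM in contralateral cord. Ptger1 gave 41.3% of that sum in ipsilateral and 57.6% in contralateral DRG, and 69.7% in ipsilateral and 23.1% in contralateral cord. Ptger4 gave 17.2% in ipsilateral and 64.9% in contralateral cord, so the gene with the largest share differed between these libraries. The cord shares rest on few reads, about 6.56 contralateral for Ptger1 and 7.54 ipsilateral for Ptger4. The level of Ptger1 is also uncertain, for the reason given below.

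**Figure D3:**
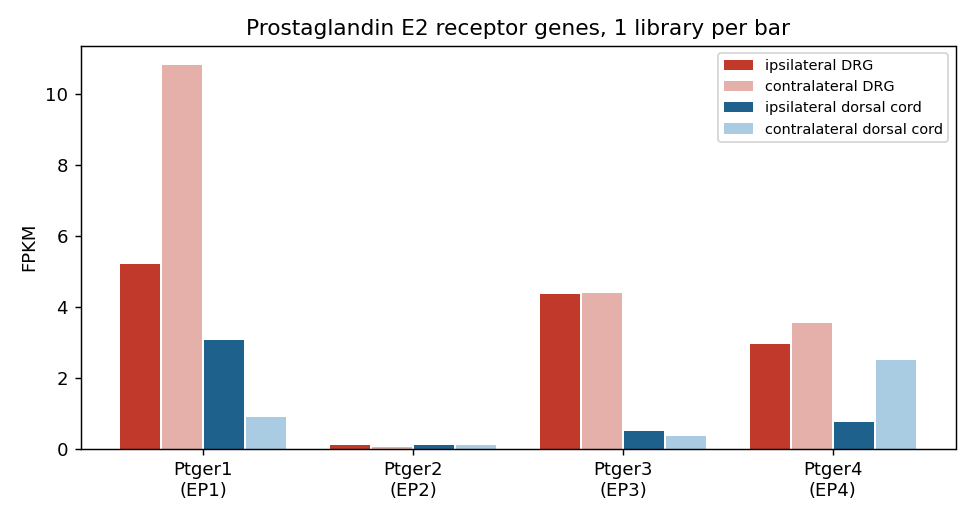
FPKM of the 4 prostaglandin E2 receptor genes, with 1 bar per library in the order ipsilateral DRG, contralateral DRG, ipsilateral dorsal cord and contralateral dorsal cord. Ptger1 is lower in ipsilateral than in contralateral DRG (5.20 against 10.8 FPKM) and higher in ipsilateral than in contralateral cord (3.05 against 0.888 FPKM), while Ptger4 is lower in ipsilateral cord (0.753 against 2.50 FPKM).

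Ptger1 encodes EP1, a receptor that raises intracellular calcium. In DRG it stood at 5.20 FPKM ipsilaterally and 10.8 FPKM contralaterally, a level 2.08-fold lower on the cut side, with an interval of 1.31 to 3.30 in the authors' deposited table, which calls it (q = 0.034, log2 ratio -0.93). In cord it stood at 3.05 FPKM ipsilaterally and 0.888 FPKM contralaterally, 3.43-fold higher with an interval of 1.39 to 8.46 in the authors' deposited table, which does not call it (q = 0.0833, log2 ratio 1.10). The standard error in cord matches about 16.7 ipsilateral and 6.56 contralateral reads. The direction thus differed between the tissues. The sources used here do not give the strand setting of the counting, so where transcripts overlap on opposite strands their reads may not be told apart, and the level of Ptger1 is uncertain on that account.

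Ptger2 encodes EP2, which raises cyclic AMP, and lies on mm9 at chr14:45607786-45623495. It stood at 0.096 FPKM in ipsilateral and 0.043 FPKM in contralateral DRG, and at 0.092 FPKM in ipsilateral and 0.102 FPKM in contralateral cord. The standard errors match about 6.58 and 1.88 reads in DRG and 2.54 and 3.80 reads in cord, so no side difference was detectable at this depth.

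Ptger3 encodes EP3, which mostly lowers cyclic AMP and is known in sensory neurons, and lies on mm9 at chr3:157229856-157307722. It was near even between the sides of the DRG, with 4.35 FPKM ipsilaterally and 4.37 FPKM contralaterally and an interval of the fold of 0.59 to 1.67 in the authors' deposited table. Its level in cord was 0.482 FPKM ipsilaterally and 0.358 FPKM contralaterally. As for Ptges, the ratio of 1.35 in cord is that of about equal numbers of reads, and the standard error matches about 4.57 reads on each side.

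Ptger4 encodes EP4, another receptor that raises cyclic AMP, and lies on mm9 at chr15:5183404-5193831. In cord it stood at 0.753 FPKM ipsilaterally and 2.50 FPKM contralaterally. The level was 3.31-fold lower on the cut side, with an interval of 1.50 to 7.30 in the authors' deposited table, which calls it (q = 0.0493). Its log2 ratio of -1.0 was below all but 1.68% of measured cord features. The standard error matches about 7.54 ipsilateral and 33.6 contralateral reads, and 15.3% of its exonic bases lie in exons of Gm15937 on the other strand in the same GRCm38 annotation. In DRG it stood at 2.95 FPKM ipsilaterally and 3.54 FPKM contralaterally, with an interval of the fold of 0.55 to 1.27 in the authors' deposited table that spans 1.

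The tissues were set side by side for the 6 members measured in both. The plain log2 fold of Ptger1 in DRG minus that in cord was -2.83, with an interval of -4.30 to -1.37 from the standard errors of the authors' deposited table. For Ptger4 this difference was 1.46 (0.17 to 2.75), and for Ptgds it was 1.01 (0.28 to 1.75). The intervals spanned 0 for Ptgs1 (-0.62, from -1.86 to 0.61), Hpgds (-0.24, from -1.50 to 1.02) and Alox5ap (0.38, from -1.03 to 1.78). These intervals describe the 4 libraries and are no test of the tissues, and Ptger1 and Ptger4 were measured in cord through 1 library only. Between contralateral libraries, and only as approximate levels, Ptger3 was about 12 times, Ptger1 about 12 times and Ptges about 10 times as high in DRG as in cord. These 3 genes were under 1 FPKM in contralateral cord, where the standard errors match about 4.57, 6.56 and 7.23 reads. Ptger3 and Ptges are not among the 6 members measured in both tissues. Hpgds was 3.44 times, Ptgs1 2.91 times and Ptgds 2.53 times as high in cord as in DRG.

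The other genes of the pathway were followed through 61 genes in 6 lists. In DRG, 37 were measured, of which 4 were 2-fold higher and 0 were 2-fold lower, where 3.04% and 0.784% of all measured features were, and their median log2 ratio was 0.08 beside 0.05 over all measured features. In cord, 30 were measured, of which 2 were 2-fold higher and 0 were 2-fold lower, where 4.46% and 1.64% of all measured features were, and their median was 0.12 beside 0.02. Of the 42 that the authors' deposited table tests in DRG it calls 4 higher and 1 lower, beside 4.64% and 1.9% of all its tested features. Of the 40 that the authors' deposited table tests in cord it calls 3 higher and 0 lower, beside 4.52% and 1.55%. The counts above are of few genes and were not tested against the shares over all features. The 4 of 37 in DRG lay above the share of 3.04%, and with a pseudocount of 3 FPKM 1 gene was 2-fold higher there.

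**Figure D4:**
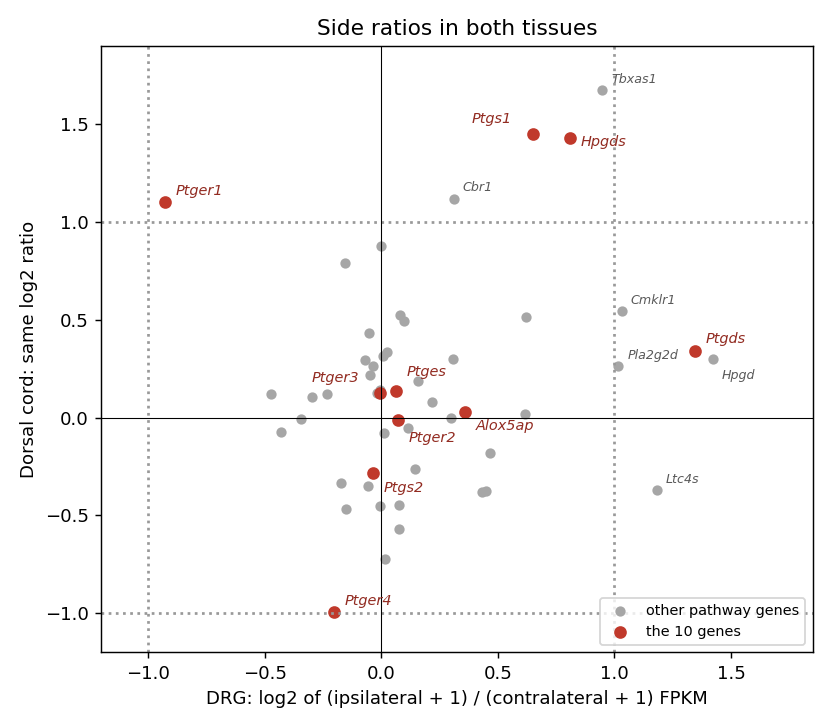
Log2 ratio of (ipsilateral + 1) over (contralateral + 1) FPKM in DRG (horizontal) and dorsal cord (vertical), with red points for the 10 genes, grey points for 42 other pathway genes at 1 FPKM or more in at least 1 tissue, and dotted lines at the 2-fold threshold. Ptgs1, Hpgds and Tbxas1 lie high on both axes, Ptger1 lies on opposite sides of 0 in the tissues, and most other points lie near 0.

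Among the terminal synthases, Tbxas1 had the largest log2 ratio in cord. It encodes thromboxane A synthase, an enzyme of platelets and macrophages, and stood at 2.56 FPKM in ipsilateral and 0.114 FPKM in contralateral cord, 22.4-fold higher with a wide interval of 5.75 to 87.0 in the authors' deposited table (log2 ratio 1.67). In DRG it stood at 1.84 FPKM ipsilaterally and 0.473 FPKM contralaterally (log2 ratio 0.95), which the authors' deposited table calls (q = 0.0327). Cbr1, a carbonyl reductase gene whose enzyme also reduces prostaglandin E2, stood at 63.9 FPKM in ipsilateral and 28.9 FPKM in contralateral cord (log2 ratio 1.12). Tbxas1 passed the filter of 1 FPKM through its ipsilateral library only in both tissues, as Ptgs1 and Hpgds did in DRG. A higher ipsilateral level was thus built into its being measured, and the direction it shares with them adds no evidence. Of the 8 synthase genes in this list, 6 were measured in DRG and 7 in cord, with medians of 0.23 and 0.30.

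In DRG, the breakdown gene Hpgd had the largest log2 ratio of the measured genes at a pseudocount of 1 FPKM, while Tbxas1 had a larger plain fold (3.89). Hpgd encodes 15-hydroxyprostaglandin dehydrogenase, which inactivates prostaglandins, and stood at 7.75 FPKM ipsilaterally and 2.27 FPKM contralaterally (log2 ratio 1.42). Its fold of 3.42 had an interval of 1.93 to 6.08 in the authors' deposited table. In cord Hpgd stood at 10.1 FPKM ipsilaterally and 8.01 FPKM contralaterally. Pla2g2d, a secreted phospholipase A2 gene, stood at 2.67 FPKM in ipsilateral and 0.815 FPKM in contralateral DRG (log2 ratio 1.02). It passed the filter there through its ipsilateral library only. Cmklr1, the chemerin receptor gene that also figures among receptors of lipid mediators, stood at 3.82 FPKM in ipsilateral and 1.36 FPKM in contralateral DRG (1.03).

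On the leukotriene branch, 1 of the 7 synthesis genes measured in DRG and 0 of the 4 measured in cord were 2-fold higher. Over all measured features the shares were 3.04% in DRG and 4.46% in cord. The levels ranged widely. Lta4h, the leukotriene A4 hydrolase gene, stood at 21.8 FPKM in ipsilateral and 19.4 FPKM in contralateral DRG, and at 24.3 FPKM in ipsilateral and 21.2 FPKM in contralateral cord. The cysteinyl leukotriene receptor gene Cysltr2 stood at 7.24 FPKM in ipsilateral and 7.57 FPKM in contralateral DRG, so both were near even there. The 1 higher gene, Ltc4s, which encodes leukotriene C4 synthase, stood at 1.27 FPKM in ipsilateral DRG and is listed at 0 in contralateral DRG. Ltc4s thus passed the filter in DRG through 1 library only, and the authors' deposited table does not call it (q = 0.0671). With a pseudocount of 3 FPKM its log2 ratio there was 0.51. In cord it stood at 0.996 FPKM ipsilaterally and 1.58 FPKM contralaterally. Lta4h, Cysltr2 and Alox5, the 5-lipoxygenase gene, were named after their values were seen. Alox5 stood at 1.10 FPKM in ipsilateral and 0.553 FPKM in contralateral DRG, and at 0.396 FPKM in ipsilateral and 0.820 FPKM in contralateral cord, and the authors' deposited tables call neither difference.

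Of the 6 receptor genes of other prostanoids, 4 were measured in DRG, with a median of -0.15, and 1 in cord (Ptgfr). None of these passed 2-fold, which so few genes would often give at the shares above. The prostacyclin receptor gene Ptgir, the prostaglandin F receptor gene Ptgfr and the prostaglandin D2 receptor gene Ptgdr were chosen after their values were seen, because their DRG levels were of the order of the E2 receptor genes or above. Ptgir stood at 14.0 FPKM in ipsilateral and 19.8 FPKM in contralateral DRG, and at 0.087 FPKM in ipsilateral cord while it is listed at 0 in contralateral cord. Ptgfr stood at 12.1 FPKM in ipsilateral and 15.1 FPKM in contralateral DRG. Ptgdr was at 9.27 FPKM in ipsilateral and 9.31 FPKM in contralateral DRG, so it was near even, as Ptger3 was.

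Markers of cell types that are known to make these genes also differed between sides. In these bulk samples fewer cells of a type and less RNA per cell cannot be told apart. All 10 myeloid markers had a log2 ratio above 0 in both tissues, where 56.1% of measured features in DRG and 51.6% in cord did. They summed to 132 FPKM in ipsilateral and 50.5 FPKM in contralateral DRG, and to 300 FPKM in ipsilateral and 74.0 FPKM in contralateral cord, a ratio of 2.61 in DRG and 4.05 in cord. Beside these stand the folds of 2.20 and 3.38 for Ptgs1, 2.92 and 3.46 for Hpgds, and 1.33 and 1.02 for Alox5ap. The neutrophil markers, also of a myeloid cell type, went the other way in DRG. They summed to 281 FPKM in ipsilateral and 297 FPKM in contralateral DRG, with 5 of 6 measured markers below 0, and 0 were measured in cord. The part of either list in the values of Ptgs1, Hpgds and Alox5ap was not tested.

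**Figure D5:**
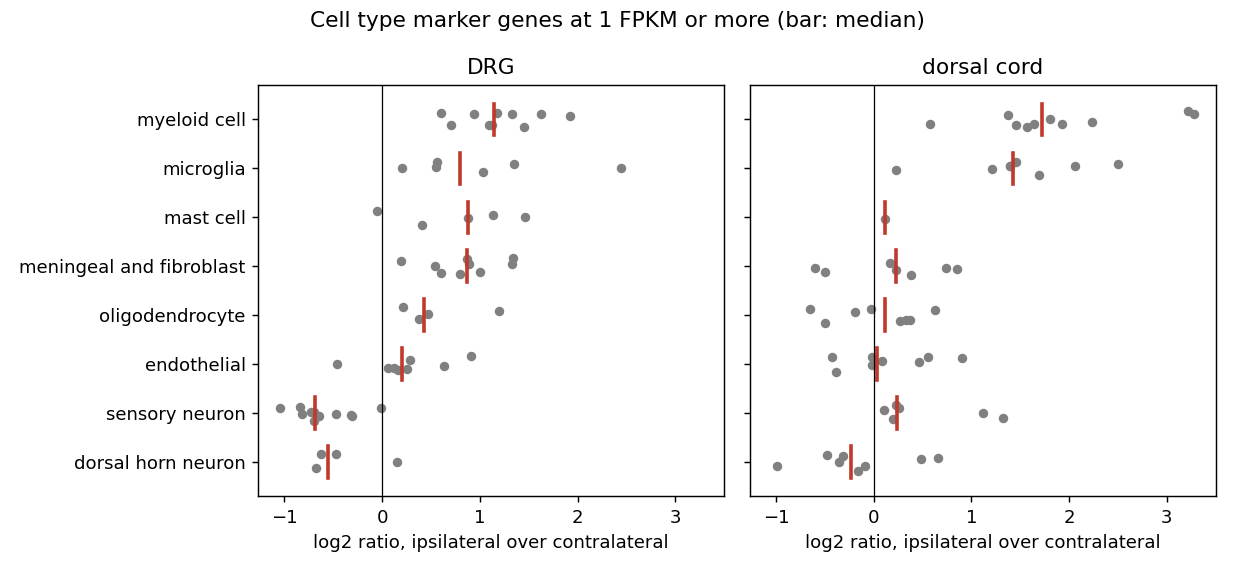
Log2 ratio of (ipsilateral + 1) over (contralateral + 1) FPKM for marker genes at 1 FPKM or more in DRG (left) and dorsal cord (right), with 1 point per gene and a bar at the median of each list. Myeloid markers lie above 0 in both tissues (medians 1.15 and 1.72), meningeal and fibroblast markers above 0 in DRG (median 0.86), and sensory neuron markers below 0 in DRG (median -0.69).

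The 8 mast cell markers gave 42.2 FPKM in ipsilateral and 26.6 FPKM in contralateral DRG, with 4 of 5 measured markers above 0. Kit alone gave 15.7 FPKM of the ipsilateral and 16.3 FPKM of the contralateral sum. Of the 5 measured, 2 were 2-fold higher, Mcpt4 and the protease gene Cma1, where 3.04% of all measured DRG features were. Cma1 stood at 8.05 FPKM in ipsilateral and 2.27 FPKM in contralateral DRG, while Kit was near even (log2 ratio -0.05). The authors' deposited table calls Mcpt4 and Cma1 but not Tpsb2 or Cpa3. Tpsab1, Fcer1a and Ms4a2 were under 1 FPKM in both DRG libraries, and of these Tpsab1 was lower ipsilaterally. The part of the mast cell markers in the DRG difference of Hpgds was not tested. In cord 7 of the 8 were listed at 0 in both libraries, Cma1, Mcpt4 and Cpa3 among them, and the eighth, Kit, stood at 8.42 FPKM ipsilaterally and 7.67 FPKM contralaterally.

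For Ptgds, the meningeal and fibroblast markers summed to 780 FPKM in ipsilateral and 405 FPKM in contralateral DRG, a ratio of 1.92, with 9 of 9 measured markers above 0. Dcn, the decorin gene of fibroblasts, stood at 494 FPKM in ipsilateral and 245 FPKM in contralateral DRG. In cord these markers summed to 48.2 FPKM ipsilaterally and 44.5 FPKM contralaterally, and Slc22a6 was listed at 0 in both libraries. The 8 oligodendrocyte markers had a summed ratio of 0.770 in cord, with 4 above 0 and 4 below. In DRG they summed to 309 FPKM ipsilaterally and 219 FPKM contralaterally, with the 4 measured markers above 0. Mog, Mobp, Opalin and Ermn were under 1 FPKM in both DRG libraries and lower ipsilaterally. The part of either list in the Ptgds values was not tested.

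For the receptor genes, all 12 sensory neuron markers were below 0 in DRG, and their sum in ipsilateral was 0.707 times that in contralateral DRG. Ptger1 lay at 0.481 times, Ptger4 at 0.832 times and Ptger3 at 0.995 times its contralateral level there. The part of the neuron markers in these values was not tested. In cord the 9 dorsal horn neuron markers summed to 2071 FPKM ipsilaterally and 2285 FPKM contralaterally, with 6 of 8 measured markers below 0. Of the 12 sensory neuron markers, 6 were measured in cord. All 6 were above 0 and 2 were 2-fold higher, where 51.6% and 4.46% of all measured cord features were. The authors' deposited table calls 0 of the 12 in cord. Trpv1 was listed at 0 in both cord libraries. Scn10a, Scn11a and Avil were listed at 0 contralaterally and under 1 FPKM ipsilaterally. Isl1 was lower on the cut side, at 0.306 FPKM ipsilaterally and 0.524 FPKM contralaterally. Calca, the gene of the neuropeptide CGRP, stood at 2.91 FPKM in ipsilateral and 0.565 FPKM in contralateral cord, and Prph, the peripherin gene, at 8.0 FPKM in ipsilateral and 3.14 FPKM in contralateral cord. Their part in the cord value of Ptger1 was not tested.

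The features whose levels were most like those of a member were sought by the distance over the 4 values of log2(FPKM + 1), among 12229 features measured in both tissues. For Ptgs1 the nearest were Lair1 (distance 0.32), Hpgds (0.38) and Ier5 (0.42). For Hpgds the first and second nearest were Lair1 (0.29) and Ptgs1 (0.38). These members were thus each the second nearest feature of the other. For Ptger1 the nearest were Def6 (0.37), Mpa2l (0.40) and H2-Q7 (0.53). Ptgds had no feature as near, the closest being Hnrnpul2 (0.80), Zwint (0.83) and Cox5b (0.87).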

How the data were processed

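Gene levels were measured by RNA sequencing in 4 libraries, 1 per group. Kits named in the labels' protocols are QIAGEN's RNeasy Mini for the RNA and Epicentre's ScriptSeq for mRNA libraries. The submitters' processing notes name build mm9 and the tools TopHat (version 1.4.0) and Cuffdiff (version 1.3.0), while the sources used here give no annotation, filter or strand setting. The authors deposited, per the file headers, 1 table per tissue with the FPKM of each library, their p-values, q-values and log2 fold, and a test statistic. The Cuffdiff q-values compare 1 library with 1 library, with calls at q up to 0.05.

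Log2 ratios with a pseudocount of 1 FPKM, a filter of 1 FPKM and a 2-fold threshold were computed in Python 3.11.15 with pandas 2.3.3 and numpy 2.4.6, after a check on simulated data. The standard error is the deposited log2 fold over the test statistic, and it gave the deposited p-values for 100% of features above 0 in both libraries. Features whose standard error is that of 1 read per library (52 in DRG, 20 in cord) gave the worth of 1 read. Total read numbers were not recovered, and the reads matching a standard error assume counting error only. With 1 library per group no test was run. Side ratios stay within a table because each table was normalised on its own, so levels and distances set across the tables are approximate.

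Named genes are the 10 members, up to 6 other pathway genes per tissue with the largest ratios past 2-fold, and the 3 features nearest to each 2-fold member. The third nearest feature of Hpgds and a comparison at the Ptger1 locus are not reported here. The members and lists were chosen with earlier results of these data known. Of the listed symbols, Fam213b and Ncmap were found under older names, and Ly6g was not matched. T and B cell markers were under 1 FPKM throughout. Further list medians were -0.17 (neutrophil, DRG only), 0.21 and 0.04 (endothelial, DRG and cord), 0.20 and 0.31 (Schwann cell), 0.01 and 0.06 (satellite glia), 0.05 and -0.07 (astrocyte), 0.80 and 1.43 (microglia), and 3.81 and 1.11 (nerve injury). The 8 alternatives were pseudocounts of 0.1 and 3 FPKM, no filter, a filter of 5 FPKM, rescaling to a common median or upper quartile, features of status OK only, and the authors' calls.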

Additional observations from a re-analysis of the deposited data

Results flagged for a closer look

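Ptger1, the EP1 receptor gene, was lower in ipsilateral than in contralateral DRG (5.20 against 10.8 FPKM) and higher in ipsilateral than in contralateral cord (3.05 against 0.888 FPKM). It stands out because its side ratio had opposite signs in the tissues. The log2 ratio in DRG minus that in cord was -2.03. With 1 library per group this difference was not tested between animals. The authors' deposited table does not call the cord value (q = 0.0833), and its standard error matches about 6.56 contralateral reads. The level of Ptger1 is also uncertain because the strand setting of the counting is not given.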

How the results depend on the processing

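No paired analysis was possible because each group has 1 library. Of the 92 recomputed counts and medians, 71 stayed within the limits set (a count within 1.5 times, a median within 0.1), 21 moved and 0 changed sign. A pseudocount of 0.1 FPKM gave 3 members at least 2-fold higher and 1 lower in DRG, 1 member lower and a member median of 1.01 in cord, and 1 other pathway gene lower in cord. A pseudocount of 3 FPKM gave 1 other pathway gene higher in each tissue and a member median of 0.49 in cord. Without a filter the member median was 0.067 in DRG and 0.13 in cord. With a filter at 5 FPKM it was 0.36 and 0.88, and 1 other pathway gene was higher in each tissue. Median rescaling gave 2 other pathway genes higher in DRG, and median and upper-quartile rescaling each gave 1 member lower in cord, which is Ptger4. The authors' calls, in place of the 2-fold rule, gave 2 members higher and 1 lower in DRG, 1 member lower in cord, and 1 other pathway gene lower in DRG. The cause of these shifts was not tested. Of the 129 recomputed log2 ratios of single genes, 0 left a 95% normal range around the value with a pseudocount of 1 FPKM. That range exists only where the authors' deposited table gives a standard error. The ratios of Ltc4s in DRG have no such range and were counted among the 129 as not leaving it, so the count says nothing about them. The range is wide for low genes, so lying within it does not show that a ratio is stable. With a pseudocount of 0.1 FPKM, Tbxas1 in cord went from 1.67 to 3.63. Ltc4s in DRG, which has no standard error, went from 1.18 to 3.77. Because a pseudocount shrinks the ratio of low genes, some of the 129 ratios lie outside the interval printed for the plain fold. The 2-fold counts rest on few reads for genes near 1 FPKM, and 1 library per side leaves variation between animals unknown.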

Other observations

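Genes that make or break down the endocannabinoid 2-arachidonoylglycerol, another source of arachidonic acid, were chosen after their values were seen. Mgll, encoding monoacylglycerol lipase, stood at 25.7 FPKM in ipsilateral and 32.9 FPKM in contralateral DRG, the only difference of the 61 other pathway genes that the authors' deposited table calls lower in DRG (q = 0.0263), with a fold of 0.78 and an interval of 0.67 to 0.91. In cord it stood at 28.8 FPKM ipsilaterally and 29.0 FPKM contralaterally. Daglb, a diacylglycerol lipase gene, stood at 7.17 FPKM in ipsilateral and 4.32 FPKM in contralateral DRG, and at 9.97 FPKM in ipsilateral and 6.68 FPKM in contralateral cord. Dagla, its paralogue, stood at 2.69 FPKM in ipsilateral and 3.12 FPKM in contralateral DRG, and at 6.61 FPKM in ipsilateral and 3.40 FPKM in contralateral cord (q = 0.055 in the authors' deposited table).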
